A study of Mus musculus with 6 samples.

Results

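A set of 101 genes was picked by a chromatin feature of mouse embryonic stem cells (ESCs). The other criterion was a higher RNA level in the neural progenitor cells (NPCs) made from them. Each gene was the nearest gene to an enhancer that SOX2 bound and that was active in ESCs, according to the study's enhancer list, and each stood in the study's ranked comparison of ESC and NPC arrays. That comparison was used down to a difference of 0.83 on the log2 scale, so the set holds genes that were higher in NPCs and none that were lower. Genes with SOX2 at their own promoter in ESCs were left out, as were solute carriers, potassium channels, axon guidance receptors and a few other families picked by the start of their symbols. The 1592 enhancer rows used lie on chromosomes 1, 3, 10 to 19 and X and give 1217 gene symbols. Of these symbols, 125 (10.3%) stood among the 1999 ranked rows, which are 11.7% of all genes measured. These shares were close, but the first is over all symbols of the enhancer rows, whether or not the gene was measured. No link between the enhancers and the rise is read from the set. Of these 125 genes, 14 were left out for a bound promoter and 11 for their family, with 1 gene left out on both grounds, and 101 remained. They are 101 of the 17144 genes measured, and the other 1898 ranked rows serve as the comparison throughout. The enhancer rows used do not cover the remaining chromosomes. Some of the other ranked rows may therefore also lie near SOX2-bound active enhancers that are not listed here. Because the members were picked by their rise from ESCs to NPCs, their rise is described here and no p-value is attached to it.

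SOX2 is an HMG box transcription factor that bends DNA and works with partners, chiefly the POU factor OCT4 in ESCs and other POU factors in the nervous system. In ESCs it maintains pluripotency, and in dividing neural progenitors it maintains the capacity to make neurons and glia. Enhancers lie away from the start site of the gene they act on. Active enhancers carry acetylated histone H3 and usually lie near transcribed genes, whereas poised enhancers carry monomethylated H3 without that acetylation and often lie near genes used later in development. The nearest gene need not be the gene that an enhancer regulates.

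The arrays compared wild type ESCs of the blastocyst-derived line V6.5 (129SvJae/C57B6 F1), grown with serum and LIF, with wild type NPCs made from these ESCs by differentiation in culture and expanded in N3 medium that held bFGF and EGF. Each cell type had 3 biological replicates, each on an Affymetrix array of its own, which makes 6 arrays. The NPCs come from 1 ESC line, so the replicates do not measure the spread between animals. The labels do not say whether the NPC replicates were separate differentiations of that line. Values are log2 expression values from robust multi-array average (RMA), and a difference is the NPC mean minus the ESC mean, so that 1 unit is a doubling. RNA was taken from whole cultures, in which more cells of a type and more RNA per cell cannot be told apart.

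The labels were checked against marker genes as far as these could be named on the arrays, which held for 14 of 73 marker genes. Pou5f1, which encodes OCT4 and marks pluripotent cells, had a mean of 12.44 in ESCs and 3.70 in NPCs. The other named markers could be named only because they stand among the ranked rises, so their higher NPC values are no check of the label, and markers that did not rise are unseen here. Of 12 neural progenitor markers 6 were named (Nes, Sox9, Fabp7, Vim, Slc1a3 and Notch1), with differences from 1.62 to 9.27. The named markers of other cell types were Olig1 (3.92), Olig2 (3.81) and Cnp (0.88) of the oligodendrocyte list, S100b (2.51) and Aldoc (2.51) of the astrocyte list, Twist1 (2.44) of the fibroblast list and Dcx (1.08) of the neuron list. No marker of mesoderm or endoderm could be named. NPC replicate 3 stood apart from the other NPC arrays. Across genes it correlated with them at r = 0.978 to 0.979, against 0.997 between NPC replicates 1 and 2 and 0.996 to 0.998 among the ESC arrays. Values are therefore given for each array, and the members that this replicate moved are described at the end.

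Promoter sequence from RefSeq, 250 bases before to 50 bases after a start site in build GRCm38.p6, was at hand for 74 of the 101 members in 102 windows. The windows were searched on both strands for the SOX letters CTTTGTT, for ATGCAAA, the first letters of the octamer that POU factors read, and for the E-box CACGTG, which reads the same on both strands and which MYC can bind. None of these motifs is contained in another. The SOX letters were in 7 of the 74 members (9.46%), namely Ankrd50, Arhgap18, Cp, Pld1, Satb1, Syt1 and Tgfb2, in 4.78% of 1506 other ranked genes and in 6.68% of all 27025 genes with a window. The octamer letters were in 3 members (4.05%), Dll1, Egr2 and Pck2, against 4.38% and 5.24%. The E-box was in 4 members (5.41%), Adam19, Egr2, Klf6 and Tgfb2, against 10.8% and 8.09%. These shares rest on a handful of members each, and a match of letters is not a binding site. The enhancers that define the set were taken by the study away from start sites, outside such windows. The 3 windows below show what such letters look like in members described further on, with the matched letters in capitals. They were chosen after the values were seen. Arhgap18 lies at chr10:26772262-26772561 on the plus strand, Syt1 at chr10:109009062-109009361 on the minus strand in 1 of its 2 windows, and Egr2 at chr10:67537619-67537918 on the plus strand in 1 of its 5 windows. The capitals mark SOX letters in Arhgap18 and Syt1 and octamer letters in Egr2, in Arhgap18 as the reverse complement, and they begin at bases 124, 175 and 124 of the windows.
Arhgap18: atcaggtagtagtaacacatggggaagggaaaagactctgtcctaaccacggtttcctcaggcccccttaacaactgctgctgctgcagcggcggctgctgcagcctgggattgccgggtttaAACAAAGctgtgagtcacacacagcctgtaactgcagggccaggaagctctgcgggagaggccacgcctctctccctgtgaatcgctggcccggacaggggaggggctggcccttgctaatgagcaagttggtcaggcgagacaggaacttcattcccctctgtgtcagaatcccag
Syt1: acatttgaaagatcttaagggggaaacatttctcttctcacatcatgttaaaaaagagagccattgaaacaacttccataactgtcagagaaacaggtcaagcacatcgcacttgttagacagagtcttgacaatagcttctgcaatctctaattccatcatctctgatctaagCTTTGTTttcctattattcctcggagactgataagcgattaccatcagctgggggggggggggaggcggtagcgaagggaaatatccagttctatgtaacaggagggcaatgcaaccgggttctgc
Egr2: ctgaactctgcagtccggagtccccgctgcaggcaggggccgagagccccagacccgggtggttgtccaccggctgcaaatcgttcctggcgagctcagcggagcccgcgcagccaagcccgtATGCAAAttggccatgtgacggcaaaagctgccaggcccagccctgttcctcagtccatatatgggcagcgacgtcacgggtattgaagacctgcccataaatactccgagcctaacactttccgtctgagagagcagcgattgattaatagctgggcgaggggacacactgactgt

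The members were higher in NPCs by a median of 1.64 on the log2 scale, which is 3.11-fold, with quartiles of 1.23 and 2.56 and a range from 0.85 to 6.76. For the other 1898 ranked rows the median was 1.46 (2.75-fold), and for all genes it was -0.04. A difference over 4-fold was seen in 38 members (37.6%), in 29.4% of the other ranked rows and in 3.48% of all genes. Every member had all NPC arrays above all ESC arrays, a pattern that 98.5% of the other ranked rows and 26.1% of all genes shared. At the study's thresholds, an adjusted p under 0.05 (limma, Benjamini-Hochberg over all genes) and a difference over 1.5-fold, 100 of the 101 members were called higher in NPCs, against 15.4% of all genes. Without NPC replicate 3 the count was again 100, against 16.7% of all genes. The rule used this contrast, so nothing about the members is read from these counts. The exception in both counts was Lonrf2, which encodes a RING finger protein. Heg1 was also lost when any array other than NPC replicate 3 was left out. The spread of the members was larger in NPCs, where the median SD over 3 arrays was 0.255, than in ESCs, where it was 0.107, and the other ranked rows gave 0.242 and 0.109.

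**Figure D1:**
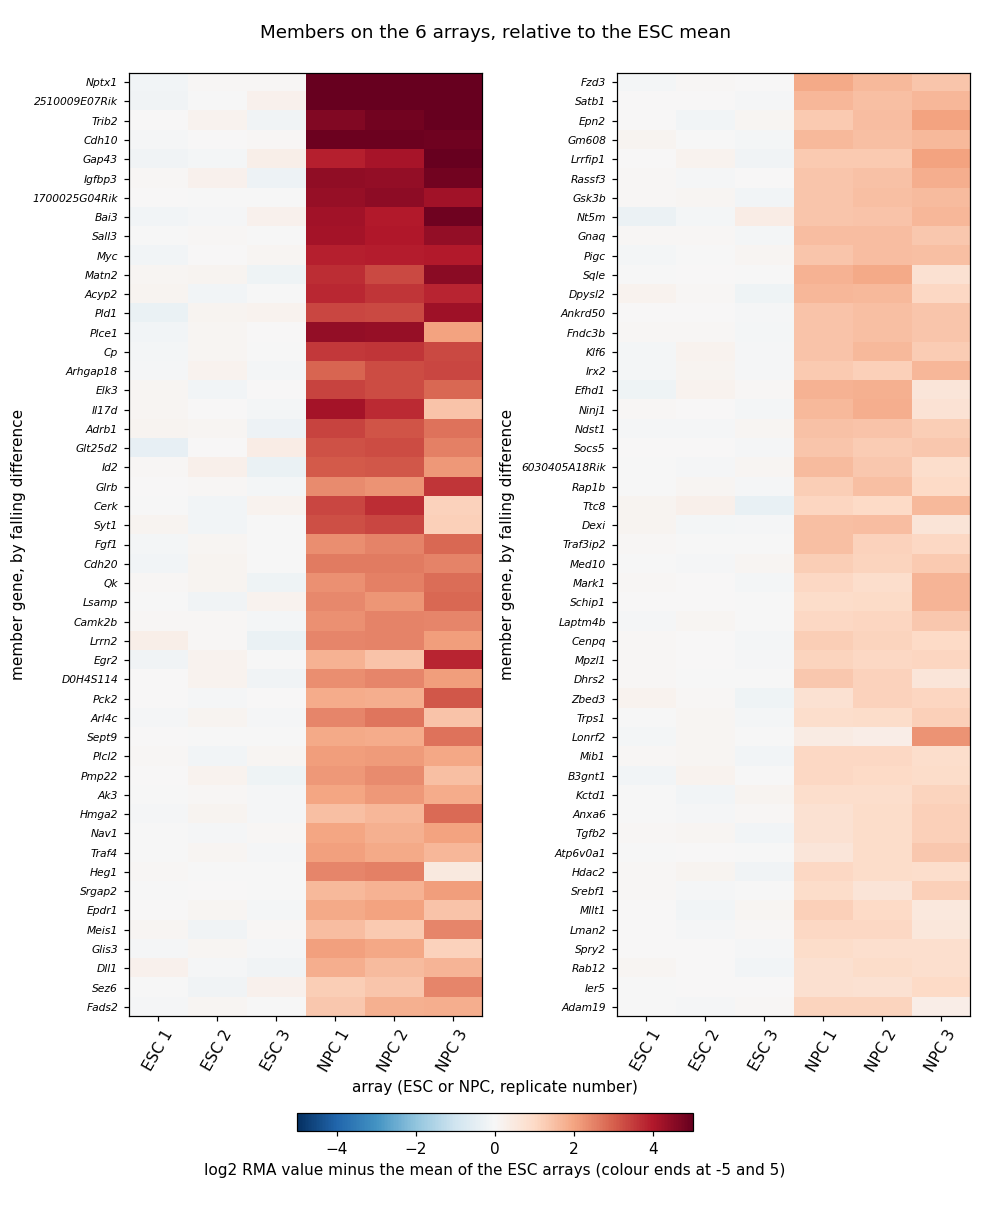
Heat map of 98 of the 101 members on the 6 arrays (columns), each gene shown as its log2 RMA value minus its mean over the ESC arrays, in falling order of the difference from Nptx1 (6.76) to Adam19 (0.85). The ESC columns are near white throughout, and the column of NPC replicate 3 departs from the other NPC columns in single genes such as Plce1, Il17d and Heg1 (paler) and Egr2 and Lonrf2 (darker).

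Genes of 6 pathway lists are given beside the members below. A gene of these lists could be named here only where it stood in the ranked comparison, so counts of calls on the lists are set by the naming and say nothing of the pathways. They were 4 of 4 named genes among 14 MYC and ID factors, 8 of 8 among 25 Notch genes, 11 of 12 among 23 FGF to ERK genes, 14 of 14 among 22 growth cone and synapse genes, 9 of 9 among 22 genes of phospholipase signalling and 15 of 16 among 33 sterol and fatty acid genes. In all, 61 of 63 named genes were called higher, 30 of them members, beside 1848 of the 1898 other ranked rows and 15.4% of all genes. Without NPC replicate 3, all 63 were called.

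The 12 members with the largest differences do not share a role. Nptx1 encodes a neuronal pentraxin, a secreted protein that gathers glutamate receptors at synapses. It read 3.66, 3.83 and 3.85 in ESCs and 10.51, 10.50 and 10.62 in NPCs, a difference of 6.76 ± 0.09 (SE from limma, n = 3 arrays per cell type). The NPC arrays lay within 0.12 of each other for a gene that differed 108.5-fold between the cell types. 2510009E07Rik and 1700025G04Rik are known only by clone names and came second and seventh, with differences of 5.66 and 4.35. Trib2 encodes a pseudokinase that brings proteins to a ubiquitin ligase, and it read 4.62, 4.77 and 4.44 in ESCs and 9.25, 9.42 and 9.93 in NPCs, a difference of 4.93 ± 0.18 (SE). Cdh10, a classical cadherin of neural tissue, read 3.71, 3.79 and 3.83 in ESCs and 8.68, 8.69 and 8.63 in NPCs, a difference of 4.89 ± 0.08 (SE). The rest of the 12 are the growth cone gene Gap43 (4.57), the insulin-like growth factor carrier Igfbp3 (4.55), the adhesion receptor Bai3 (4.34), the zinc finger gene Sall3 (4.19), Myc (3.93), the matrix gene Matn2 (3.83) and the acylphosphatase gene Acyp2 (3.72).

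Regulators of transcription and chromatin made up 17 members, with a median difference of 1.71 and a range from 0.90 to 4.19. Sall3, a spalt family zinc finger gene, led them. Its ESC arrays read 4.58, 4.64 and 4.57 and its NPC arrays 8.77, 8.61 and 8.99. Myc, which drives growth and the cell cycle and also supports self-renewal in ESCs, read 6.06, 6.22 and 6.30 in ESCs and 10.08, 10.13 and 10.16 in NPCs. Its difference of 3.93 ± 0.09 (SE) is 15.3-fold, and the NPC arrays were as close to each other as those of any member of this group. Id2 encodes a helix-loop-helix protein that lacks a DNA-binding domain and blocks basic partners that promote differentiation. It read 7.03, 7.21 and 6.61 in ESCs and 10.02, 10.05 and 9.12 in NPCs, with NPC replicate 3 the lowest of the NPC arrays. Id2 had a difference of 2.78. On a list of MYC and ID factors, the named genes beside Myc and Id2 were Id3 (3.94) and the MYC antagonist Mxd4 (3.07).

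The other regulators changed less than Sall3 and Myc. Elk3, an ETS factor that acts with serum response factor, had a difference of 3.17, the chromatin architecture gene Hmga2 1.99, the homeobox gene Meis1, whose product partners HOX proteins, 1.77, and the zinc finger gene Glis3 1.71. Satb1, which organizes chromatin at AT-rich DNA, read 6.32, 6.32 and 6.23 in ESCs and 7.95, 7.80 and 7.97 in NPCs, a difference of 1.62. Klf6 (1.43) and the Iroquois homeobox gene Irx2 (1.38) followed. At the lower end were Trps1, a GATA-type repressor (0.99), Hdac2, a histone deacetylase (0.94), Srebf1, the regulator of lipid synthesis genes (0.92), and Mllt1, a subunit of an elongation complex (0.90). Hdac2 read 8.75, 8.80 and 8.49 in ESCs and 9.71, 9.61 and 9.55 in NPCs, so that even this small rise left a gap between the cell types wider than the spread within either.

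**Figure D2:**
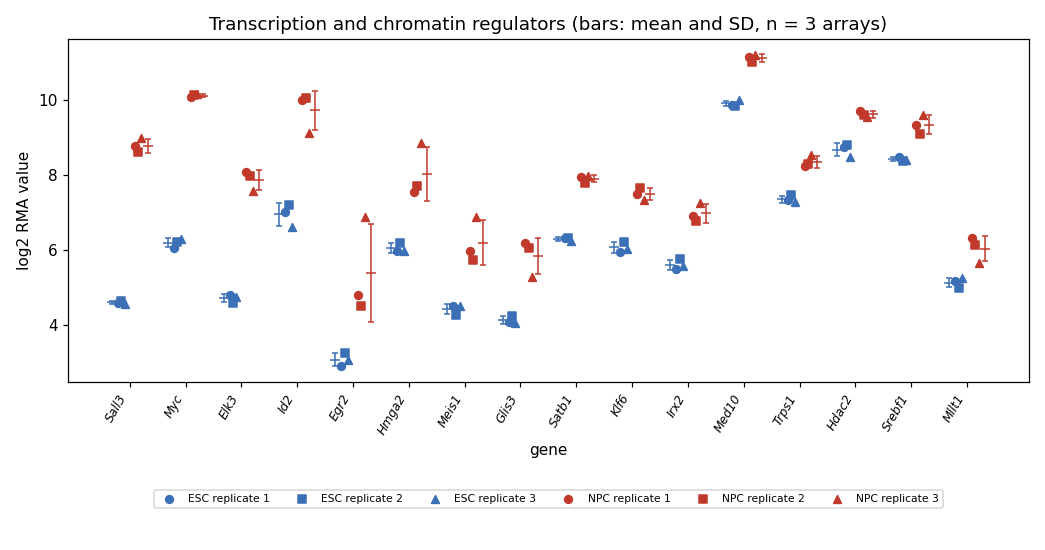
Log2 RMA values (y axis) of 16 of the 17 regulators of transcription and chromatin on each ESC (blue) and NPC (red) array, with symbols for replicates 1 to 3 and bars for the mean and SD of 3 arrays. NPC replicate 3 (red triangles) lies well above the other NPC arrays in Egr2 (6.89) and Hmga2 (8.87), whereas the NPC arrays of Myc lie between 10.08 and 10.16.

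Members of the Notch pathway included a ligand and the ligase that acts on it. Dll1, a ligand that cells present to their neighbours, read 5.98, 5.74 and 5.62 in ESCs and 7.60, 7.38 and 7.49 in NPCs, a difference of 1.71. Mib1, the ubiquitin ligase that makes such ligands competent to signal, read 6.81, 6.87 and 6.61 in ESCs and 7.81, 7.79 and 7.66 in NPCs, a difference of 0.99. In NPC replicate 3, Dll1 and Mib1 lay within 0.14 of the other NPC arrays, while Lfng, which encodes a glycosyltransferase that modifies Notch, was higher by 1.35.

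In the FGF to ERK pathway, members were found from ligand to feedback. Fgf1, a secreted ligand of FGF receptors, read 5.07, 5.23 and 5.14 in ESCs, and 7.47 and 7.64 in NPC replicates 1 and 2. Replicate 3 was 0.45 higher still, and the difference was 2.56. Elk3, a nuclear target of ERK, read 4.79, 4.59 and 4.75 in ESCs and 8.07, 7.98 and 7.57 in NPCs. Egr2, an immediate early zinc finger gene that patterns the hindbrain and later controls myelination, read 2.90, 3.24 and 3.06 in ESCs and 4.79, 4.49 and 6.89 in NPCs. NPC replicate 3 thus set much of the Egr2 mean, and without it the difference was 1.58 in place of 2.32. Spry2, which inhibits receptor tyrosine kinase signalling, changed by 0.87 and the immediate early gene Ier5 by 0.85. In NPC replicate 3, Egr1 was 2.80 above the other NPC arrays, Egr2 2.24 and Dusp6, a phosphatase that ERK induces, 1.13, whereas Spry2 was within 0.06. The list was mixed in this replicate. Egfr stood at 0.73, Spry4 at 0.60, Spred1 at 0.42, Fgfr1 and Ier5 at 0.20, Spry1 at 0.01 and Elk3 at -0.46. Egr1 was not called with all arrays and was called without NPC replicate 3.

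Growth cone and synapse genes numbered 10, with a median difference of 2.20. Gap43, a membrane protein of growing axons, read 4.23, 4.34 and 4.71 in ESCs and 8.32, 8.55 and 10.11 in NPCs. NPC replicate 3 was 1.67 above the other arrays, and without it the difference was 4.01 in place of 4.57. Syt1, the calcium sensor for release of synaptic vesicles, whose window with SOX letters is printed above, went the other way. It read 3.82, 3.58 and 3.69 in ESCs and 6.93, 7.02 and 4.90 in NPCs, so that NPC replicate 3 was 2.08 below the others and still 1.20 above the ESC mean. Glrb, a subunit of the glycine receptor, read 5.39, 5.29 and 6.62 in NPCs against 3.05, 3.11 and 2.94 in ESCs. Sez6, a membrane protein of dendrites, was also high in NPC replicate 3 (8.26, against 7.05 and 7.19). In NPC replicate 3 the remaining genes of this group departed less from the other NPC arrays. Mark1 stood at 0.74, Dpysl2 at -0.62, Lsamp at 0.58, Srgap2 at 0.43, and Nav1 and Nptx1 at 0.12. Lsamp, an adhesion molecule of the limbic system, had a difference of 2.48, Nav1, which follows growing microtubule ends, 1.92, Srgap2, a GTPase-activating protein of migrating neurons, 1.82, Dpysl2, which binds tubulin in growing axons, 1.44, and the microtubule regulating kinase Mark1 1.20.

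**Figure D3:**
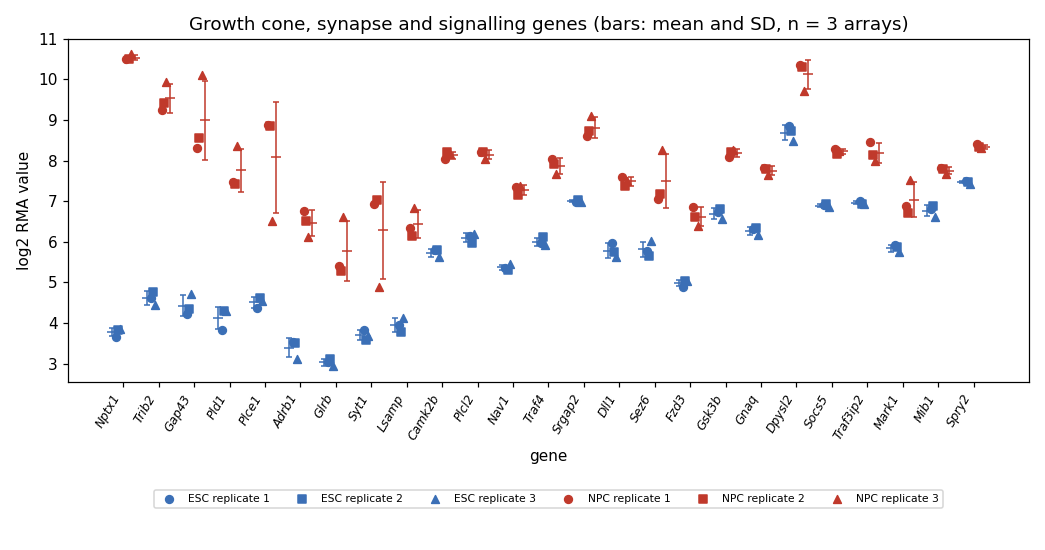
Log2 RMA values (y axis) of 25 of the 26 members with roles in the growth cone, the synapse or signalling, on each ESC (blue) and NPC (red) array in falling order of the difference, with bars for the mean and SD of 3 arrays. NPC replicate 3 (red triangles) is far below the other NPC arrays in Plce1 (6.51) and Syt1 (4.90) and above them in Gap43 (10.11).

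Receptors and signalling proteins made up 16 members, with a median difference of 1.67. The list of phospholipase signalling genes accounted for 7 of them. It also takes in receptors, G proteins and calcium-dependent kinases and is not a single route. Adrb1, a beta adrenergic receptor, read 3.54, 3.50 and 3.11 in ESCs and 6.76, 6.52 and 6.11 in NPCs, a difference of 3.08. Gnaq, the G protein subunit that activates phospholipase C, changed by 1.48 with NPC arrays between 7.64 and 7.83. Plce1, a phospholipase C that small GTPases activate, read 8.88, 8.84 and 6.51 in NPCs against 4.36, 4.61 and 4.54 in ESCs. Its difference was 3.57, and 4.36 without NPC replicate 3. Pld1, a phospholipase D, differed by 3.63, Plcl2, a relative of phospholipase C without its catalytic activity, by 2.05, and Camk2b, a calcium-dependent kinase, by 2.40. Camk2b read 5.79, 5.79 and 5.62 in ESCs and 8.04, 8.21 and 8.16 in NPCs. Among the other signalling members, the Wnt receptor gene Fzd3 had a difference of 1.64, and Gsk3b, a kinase that restrains Wnt signalling, was 2.82-fold higher. Socs5, a suppressor of cytokine signalling, and the adaptor genes Traf4 and Traf3ip2 had differences of 1.34, 1.87 and 1.23.

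Secreted factors were the smallest group but for the small GTPases, with 5 members and a median difference of 3.10. Igfbp3, which carries insulin-like growth factors, read 6.58, 6.73 and 6.27 in ESCs and 10.96, 10.94 and 11.34 in NPCs, a difference of 4.55. Cp encodes ceruloplasmin, a copper-binding ferroxidase, and read 3.47, 3.66 and 3.53 in ESCs and 7.07, 7.14 and 6.85 in NPCs. Il17d, a cytokine gene, read 8.37, 7.97 and 5.63 in NPCs against 4.32, 4.24 and 4.11 in ESCs, and its NPC SD of 1.48 was the highest among the members. Tgfb2, a transforming growth factor, differed by 0.96. The 9 members with roles in adhesion, matrix or membrane contact had a median difference of 2.00. Beside Cdh10, they included another classical cadherin gene, Cdh20, at 4.79, 5.04 and 4.88 in ESCs and 7.49, 7.50 and 7.37 in NPCs. Bai3, an adhesion G protein-coupled receptor of neurons, read 2.84, 2.90 and 3.17 in ESCs and 7.17, 6.93 and 7.83 in NPCs. Matn2 read 4.01, 4.05 and 3.71 in ESCs and 7.60, 7.22 and 8.45 in NPCs. Heg1, a membrane receptor of the vascular lining, read 3.38, 3.29 and 3.29 in ESCs and 5.76, 5.84 and 3.82 in NPCs, so NPC replicate 3 was only 0.50 above the ESC mean.

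Metabolic enzymes and organelle proteins numbered 14, with a median difference of 1.48. Acyp2 led this group, at 4.86, 4.58 and 4.67 in ESCs and 8.47, 8.27 and 8.52 in NPCs. Cerk, which phosphorylates ceramide, read 7.57, 7.92 and 5.36 in NPCs against 4.20, 4.08 and 4.40 in ESCs. Pck2, a mitochondrial enzyme that makes phosphoenolpyruvate, read 8.53, 8.49 and 9.78 in NPCs against values from 6.65 to 6.71 in ESCs. The departures of NPC replicate 3 in these enzymes thus had opposite signs. Lipid synthesis was represented by Sqle, Fads2 and the regulator Srebf1. Sqle, which makes the epoxide from which sterols are closed, read 9.86, 9.91 and 9.87 in ESCs and 11.62, 11.79 and 10.63 in NPCs. Fads2, a desaturase for polyunsaturated fatty acids, read 7.81, 7.96 and 7.85 in ESCs and 9.22, 9.66 and 9.70 in NPCs. On a list for sterol and fatty acid synthesis, the 16 named genes moved unevenly in NPC replicate 3. Lss, the only named gene of the list not called with all arrays, was called without this replicate. Lower there by over 1 unit were 7 genes (Lss -1.97, Hsd17b7 -1.72, Sc5d -1.26, Nsdhl -1.24, Sqle -1.07, Dhcr7 -1.05 and Cyp51 -1.03). These encode enzymes between squalene and cholesterol, but Tm7sf2 of the same stretch stood at only -0.36, and outside it Stard4 stood at -0.96, Mvk at -0.64 and Scd1 at -0.63. Srebf1 (0.39) and Fads2 (0.26) were slightly higher, and no gene of the list was higher by over 1.

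**Figure D4:**
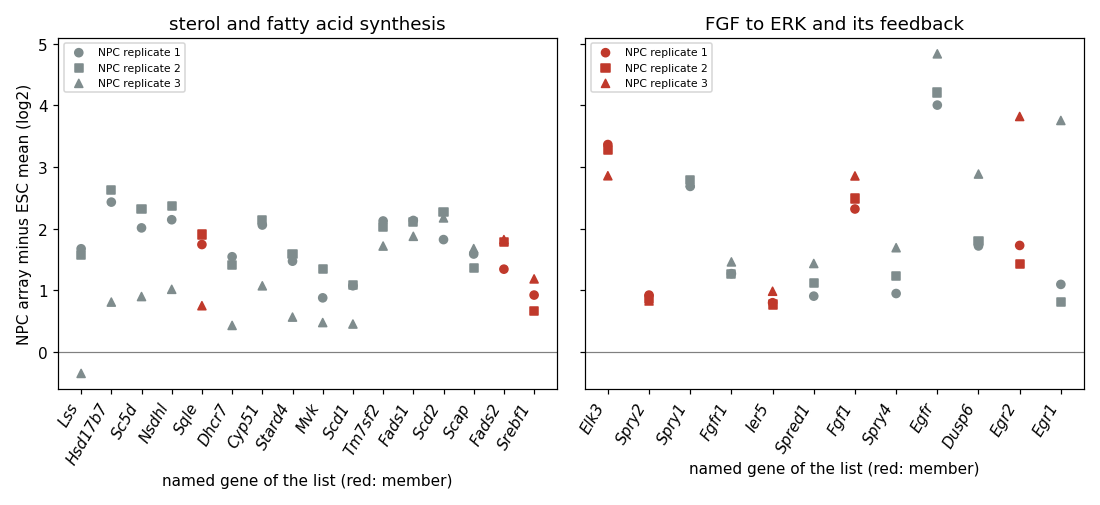
NPC array values minus the ESC mean (y axis, log2) for the named genes of the sterol and fatty acid list (left) and of the FGF to ERK list (right), members in red, with symbols for NPC replicates 1 to 3 and genes ordered by the departure of replicate 3. Triangles lie below the other symbols at the left of the sterol panel (Lss, -1.97 from the other NPC arrays) and above them at the right of the ERK panel (Egr1, 2.80).

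The remaining 30 members were 4 small GTPases or their regulators and 26 genes with other roles. Arhgap18, a GTPase-activating protein whose window is printed above, read 4.41, 4.62 and 4.34 in ESCs and 7.37, 7.71 and 7.80 in NPCs, a difference of 3.17. Arl4c, an ARF-like GTPase, differed by 2.18, Rap1b, a RAS-like GTPase of adhesion, by 1.24 and Rab12, a GTPase of vesicle transport, by 0.86. Among the others, Qk encodes an RNA-binding protein of glia and read 7.53, 7.63 and 7.26 in ESCs and 9.74, 9.98 and 10.28 in NPCs. Septin 9, a filament-forming GTP-binding protein, is the member whose symbol stands as a calendar date in the study's sheets, and it was read as that gene because its 4 enhancers and the RefSeq gene both lie on chromosome 11. It read 9.03, 8.97 and 8.97 in ESCs and 10.88, 10.84 and 11.69 in NPCs. The 26 genes had a median difference of 1.41.

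For a count of genes that NPC replicate 3 moved, its value was set against the mean of NPC replicates 1 and 2, with a limit of 1 log2 unit. Replicate 3 was higher by more than this in 10 members, in 122 of the 1898 other ranked rows and 2.20% of all genes. It was lower by more than this in 8 members, in 163 of those other rows and in 1.80% of all genes. Together these were 18 of 101 members (17.8%), 285 of 1898 other ranked rows and 686 of 17144 genes. In the share that departed, the other ranked rows were closer to the members than all genes were. The largest difference between NPC replicates 1 and 2 in any member was 0.44. Members that were higher in replicate 3 included Egr2 (2.24), Lonrf2 (1.86), Gap43 (1.67), Glrb (1.28), Pck2 (1.27), Hmga2 (1.24), Sez6 (1.14), Matn2 (1.04) and Meis1 (1.02). Egr2, Hmga2 and Meis1 are regulators of transcription, and Gap43, Glrb and Sez6 are growth cone and synapse genes. Those that were lower were Il17d (-2.54), Cerk (-2.38), Plce1 (-2.36), Syt1 (-2.08), Heg1 (-1.98), Efhd1 (-1.15), Arl4c (-1.12) and Sqle (-1.07). No regulator of transcription was among them, but Id2 stood at -0.91 and Glis3 at -0.84. Among the 17 regulators, replicate 3 was the highest NPC array in 11 and the lowest in 6. The difference of Lonrf2 came mostly from this array. Its NPC arrays read 3.40, 3.35 and 5.23, the last being replicate 3, and its ESC arrays 2.90, 3.10 and 3.00, and its difference of 0.99 became 0.37 without replicate 3. Of the 6 named neural progenitor markers, Sox9 (1.27) and Slc1a3 (1.10) were higher by over 1 in replicate 3, Fabp7 stood at 0.72, Notch1 at 0.35, Nes at -0.07 and Vim at -0.18. Dcx of the neuron list was lower by 1.20. Their part in the members' departures was not tested.

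**Figure D5:**
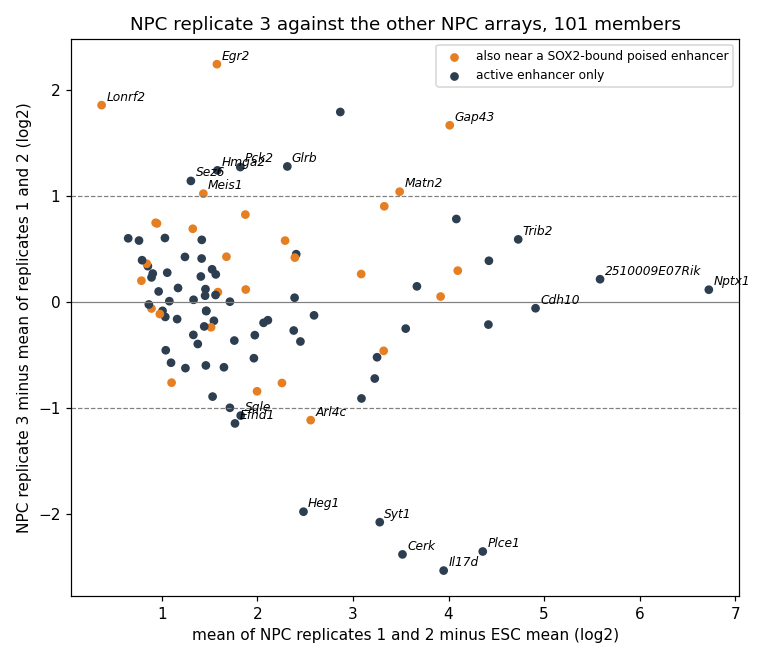
Departure of NPC replicate 3 from the mean of NPC replicates 1 and 2 (y axis, log2) against the rise of those replicates over the ESC mean (x axis, log2) for the 101 members, orange where the gene is also nearest to a SOX2-bound poised enhancer. Outside the dashed lines at 1 and -1 lie 10 members above, 5 of them orange, and 8 below, 1 of them orange.

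Some members lay nearest to a poised enhancer as well as an active one. These were 28 members (27.7%), whereas 196 other ranked rows (10.3%) were nearest to a listed poised enhancer. The poised enhancers did not enter the choice of members, but both lists come from the same SOX2 binding data, so the shares are given as a description. Members come only from the chromosomes of the active enhancer rows used, a limit that the other ranked rows do not have. The shares thus rest on unlike sets of chromosomes. The 28 members had a median difference of 1.87 and included Gap43, Sall3, Myc, Matn2, Pld1, Arhgap18 and Elk3, all above 3. The other 73 members had a median of 1.58 and included Nptx1, Trib2, Cdh10 and Igfbp3. The 184 other ranked rows near a poised enhancer and no listed active one had a median of 1.66. In the 28 members NPC replicate 3 was the highest NPC array in 20 (71.4%), and in the other 73 members in 29 (39.7%). Replicate 3 was the highest NPC array in 46.7% of the 184 rows, in 37.3% of the 1898 other ranked rows and in 37.9% of all genes. Genes are not replicates and no test was made of this contrast.

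The number of listed active enhancers per member was 1 in 83 members, 2 in 12, 3 in Myc, Id2 and Pmp22, and 4 in Qk, Spry2 and septin 9. Pmp22 encodes a membrane protein of myelin. The 18 members with more than 1 enhancer had a median difference of 1.73, and the 83 with 1 enhancer had 1.64. The 4 enhancers nearest to Spry2 went with a difference of 0.87, and the 4 nearest to Qk with 2.53, so that members with as many enhancers ranged widely. For comparison, the 14 ranked genes with both an active enhancer and a bound promoter had a median of 1.57.

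The members started from unlike ESC signals. By the ESC mean, 16 members lay below the 25th percentile of all genes (4.01), 18 above the 75th percentile (7.69) and 67 between, and their median differences were 2.91, 1.23 and 1.71. The other ranked rows gave 2.00, 1.19 and 1.496 in the same order. The ESC signal correlated with the difference at r = -0.51 (Spearman's rho = -0.50) across the 101 members and at r = -0.33 (rho = -0.31) across the 1898 other rows. Both are descriptions across genes, and the ESC mean enters both measures. RMA signals also depend on the probes of a gene, so the classes sort signals and not numbers of transcripts. Members high in ESCs already included Med10, a subunit of Mediator (9.88, 9.86 and 10.00 in ESCs and 11.15, 11.02 and 11.21 in NPCs), Rap1b and Sqle. Members with low ESC signals included Bai3, Glrb, Egr2, Lonrf2 and Heg1.

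Just inside the threshold of the ranked comparison were Adam19 (0.85), Ier5 (0.85) and Rab12 (0.86). Adam19, a membrane metalloprotease, read 7.81, 7.78 and 7.89 in ESCs and 8.93, 8.93 and 8.16 in NPCs. The lowest row used had a difference of 0.834, and the next measured gene below it, which has no name here, stood at 0.834 as well, so the limit does not mark a gap in the data. Genes near SOX2-bound active enhancers that changed less than this or that fell in NPCs were not analysed here.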

How the data were processed

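RNA from 3 ESC and 3 NPC samples was measured on Affymetrix arrays, 1 array per sample. The authors deposited log2 values made by RMA under an updated probe annotation (BrainCDF), 1 value per Ensembl gene. Its version and build were not given in the sources used here. Background correction and normalization were thus done before deposit and bring the arrays to a common scale, which hides any change in total RNA, and no further step was applied. The array medians were 5.75 to 5.76 in ESCs and 5.59 to 5.61 in NPCs. Arrays carry no molecule counts, and their number limits the precision. Of 17208 rows, 64 control probe sets were left out. No per-sample column was left unused.

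The Ensembl identifiers matched none of the entries of the RefSeq gene table at hand (GRCm38.p6), which lists no such identifiers. Genes were named by equal values on all 6 arrays, within 0.0001, to rows of the study's own sheets (1999 of the comparison of ESCs and NPCs, 6 of POU factors and 7 of RFX and NF-I factors), which named 2004 genes and left 15140 unnamed. The fold changes and test columns of those sheets were not used. Of the member symbols, 99 matched RefSeq.

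Differential expression was fitted with limma 3.58.1 (lmFit and eBayes, no covariates) in R 4.3.3 over all 17144 genes with Benjamini-Hochberg adjustment, and a gene counted as called when its adjusted p was under 0.05 and its means differed by over 1.5-fold. On simulated arrays of 17144 genes for NPCs against ESCs it called 87 of 100 genes changed by 1 log2 unit and 96 of 100 changed by 2. Summaries and figures used Python 3.11.15 with pandas 2.3.3, and matplotlib 3.10.9 for drawing.

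The members, the 6 pathway lists, the 7 marker lists and the roles were chosen with earlier results of these data known. Genes named with values are the 12 largest and 4 smallest differences, members with NPC replicate 3 over 1.5 units from the other NPC arrays, regulators of transcription, and members of the pathway lists. Other members named were chosen after their values were seen. A few members are counted but not reported here by name. The planned counts of all genes near active enhancers were not made, because 10.3% of the symbols could be named and 80% was the minimum. Alternatives were median centring, quantile normalization, a filter at the 25th percentile, a moderated Welch test, a mean-variance trend, a replicate block, a 2-fold threshold and each array left out in turn.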

Additional observations from a re-analysis of the deposited data

How the results depend on the processing

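The count of members called higher in NPCs was 100 under median centring, quantile normalization, the filter at the 25th percentile, the moderated Welch test and the mean-variance trend, 83 with a 2-fold threshold, and 99 to 100 with 1 array left out. Lonrf2 was not called in any of these settings, and Heg1 was lost without any single array other than NPC replicate 3. Of the pathway list genes 61 were called, 55 with a 2-fold threshold and 61 to 63 with 1 array left out, counts that the naming through ranked rises sets. The median difference of the members, 1.64, was 1.79 after centring each array on its median and 1.70 after quantile normalization, and lay between 1.59 (without NPC replicate 3) and 1.66 with 1 array left out. Centring moved the median of all genes from -0.04 to 0.12 and that of the other ranked rows to 1.61. It also turned the balance of all calls from 2638 higher and 3213 lower to 3302 and 2642. With replicate number as a block, 100 members were called and the median difference was 1.64. The labels do not say whether these numbers pair samples. Same-numbered deviations correlated at 0.0264, 0.0110 and -0.00645. The count of members in which NPC replicate 3 departed by over 1 unit was 18, 17 after quantile normalization and 15 when measured from the nearer of the other arrays, and 9 departed by over 1.5 units. For 55 named members under 8 scalings or omissions, 24 of 440 differences moved by over 1 SD, all of them upward. None changed sign. All 24 moved under median centring or quantile normalization. Leaving out 1 of 3 arrays cannot shift a difference by over 1 SD, so the count of 24 says nothing of single arrays. Without NPC replicate 3, Lonrf2 went from 0.99 to 0.37, Egr2 from 2.32 to 1.58 and Heg1 from 1.82 to 2.48. With 3 arrays per cell type, of which 1 NPC array stood apart, small differences of genes with a large NPC spread are the least certain.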
